A study of Mus musculus with 24 samples.

Results

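Wounds of diabetic mice dressed with a hydrogel were compared at day 7 with wounds under the same dressing at day 1, to describe how gene expression in the treated wound moved over its first week. The comparison held every library of hydrogel wounds taken at these days, 3 of day 7 and 3 of day 1, which is 6 of the 24 libraries of the series. They were chosen by title alone, where TEOA marks the hydrogel arm, and no control library entered the contrast. The labels give the treatment as Fmoc-KYF-AgNCs-3S1C-Hyd2 hydrogel, a peptide gel. By the title of the series it holds nanoclusters of silver together with a hydrogenase that tolerates oxygen, so that light can drive the release of hydrogen gas. Wounds labelled as diabetic control, of day 7 (3 libraries) and day 1 (3 libraries), were used only to ask whether a change differed between the arms. The 12 remaining libraries came from wounds of day 14 and from RAW264.7 cells, a mouse macrophage line. The model of diabetes, the strain, sex and age of the mice, the size of the wounds and the light given are not named in the labels, and nothing says that the 3 libraries of a group came from separate animals. The spread that the p-values measure is thus that among libraries, and it may be technical.

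A skin wound passes through phases that overlap. Neutrophils and then monocytes enter within the first day, drawn by chemokines, and are later replaced by macrophages and lymphocytes. Keratinocytes at the edge divide and migrate to close the gap, fibroblasts and myofibroblasts lay down and contract new matrix, and follicles, sebaceous glands and pigment cells are present only where skin appendages survive or return. In diabetes the early inflammatory phase is known to last longer and closure to be slower.

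Values are in CPM, the read pairs of a gene relative to the library's total, after scaling by the trimmed mean of M values (TMM, a correction for differences in library composition). Total counts were 14.3 M, 17.4 M and 15 M at day 7 and 12.4 M, 26.6 M and 27.1 M at day 1. The day 7 libraries lay close together. In a fit of each group alone, the common coefficient of variation beyond counting noise was 11.1% at day 7, against 44.1% at day 1. Counts differed between every pair of replicates by more than sampling noise, with a median chi-square per gene of 1.29 to 2.31 at day 7 and 7.62 to 26.8 at day 1, where noise alone gives 0.455. Day 1 replicate 1 stood apart from the other 2 day 1 libraries. Its summed level of 22 endothelial genes was 2891 CPM against 767 and 1162 CPM in the others, of interferon response genes 605 CPM against 257 and 204 CPM, and of hair follicle genes 243 CPM against 13.7 and 18.7 CPM. The tissue held much skeletal muscle RNA besides skin. Acta1, the actin of adult skeletal muscle, was at 34657, 30853 and 37939.9 CPM in day 7 wounds and at 45392, 48148 and 72983 CPM in day 1 wounds, and Krt14, a keratin of basal keratinocytes, at 3047, 2997 and 3101 CPM in day 7 wounds and at 1068, 1419 and 1032 CPM in day 1 wounds. The clone-based symbol CT010467.1 was highest in replicate 1 of both groups, at 41761, 3006 and 4860 CPM in day 7 wounds and at 8940, 1467 and 2078 CPM in day 1 wounds.

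Of 17592 genes tested, 3221 differed between day 7 and day 1 (18.3%) at an adjusted p below 0.05 (edgeR quasi-likelihood test, Benjamini-Hochberg adjustment over all genes). Of these, 1366 rose (7.76%) and 1855 fell (10.5%), and the libraries of the 2 days did not overlap in 7092 genes (40.3%). Counts of list members below are to be read beside these shares of all genes. The falls in the macrophage, endothelial, interferon response and matricellular lists were near the share of all genes and do not set these lists apart. The same holds for the rises in the repair growth factor, fibroblast and DNA replication lists. The median log2 fold change of all genes was -0.11. When library totals were used without TMM that median was 0.22, and 1717 genes rose and 562 fell, so small changes in either direction depend on the scaling. The day 7 libraries, with their small spread, entered the shared estimate of spread, and how far the count rested on this was not tested. Summing each day 7 group into 1 library took away that spread and the replicates of day 7 together, so that fit cannot tell the 2 apart. The median log2 fold change of all genes was then -0.08. Without day 1 replicate 1, 5169 genes were called, and without any 1 of the other 5 libraries 999 to 1620. Of 161 genes chosen to be named that passed, 69 also passed without each single library in turn, and none of the 161 changed direction in these fits. Where the call of a named gene ended without a library, its paragraph says so. Error values of log2 fold changes below are standard errors. In bulk tissue, fewer cells of a type and less RNA of a gene in each cell cannot be told apart, and this holds for every change below.

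**Figure D1:**
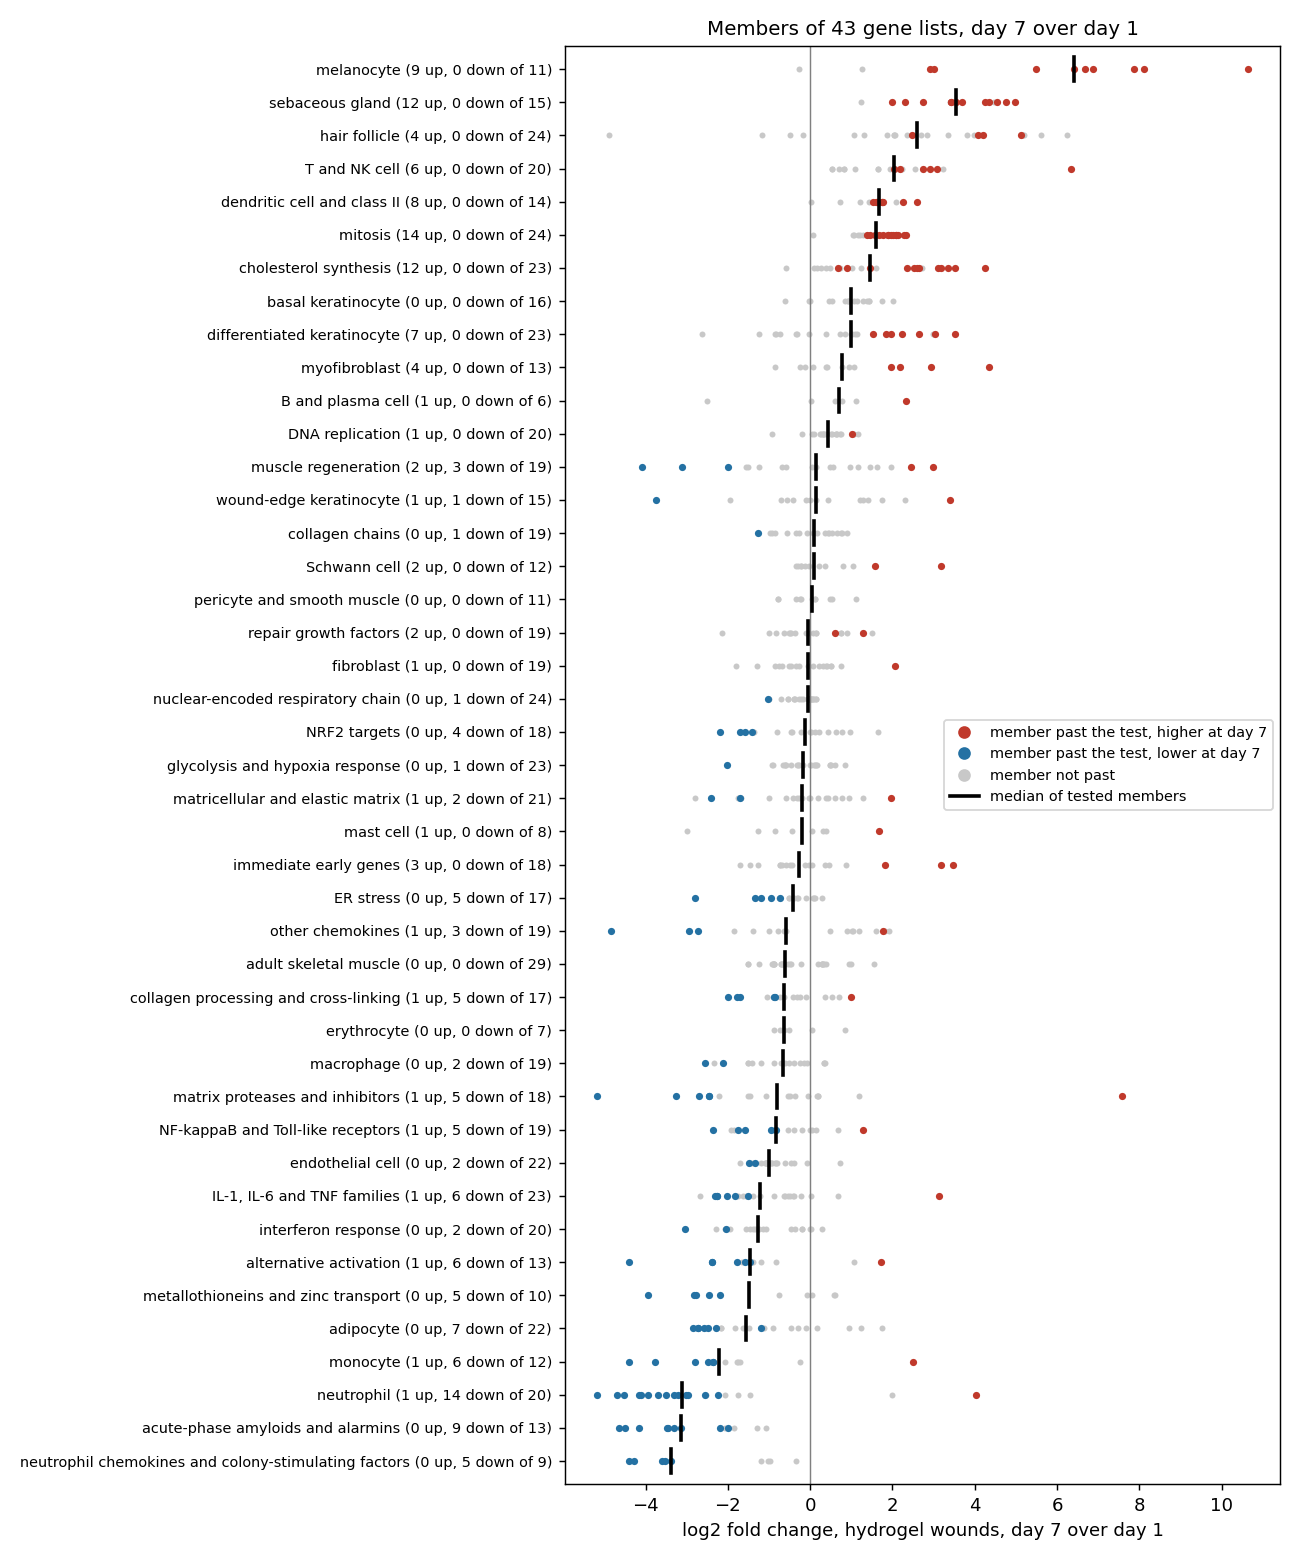
Log2 fold change (day 7 over day 1, horizontal axis) of each tested member of the 43 gene lists, 1 list a row, ordered by median (black bar). Red points rose, blue points fell at an adjusted p below 0.05 and grey points did not pass; melanocyte and sebaceous gland lists stand at the top with medians of 6.41 and 3.54, and neutrophil chemokines at the bottom with -3.37.

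Neutrophil genes were the group with the most members that fell by day 7. Of 24 markers of neutrophils, the first white cells to enter a wound, 20 were tested, and 14 fell and 1 rose, with a median log2 fold change of -3.11. Cxcr2, the receptor through which neutrophils follow ELR chemokines (chromosome 1, 74153989 to 74161246, plus strand, GRCm38), was at 1, 1.12 and 1.94 CPM in day 7 wounds, against 8.08, 55.9 and 6.37 CPM in day 1 wounds, a log2 fold change of -4.11 ± 0.71 (adjusted p = 0.0033). Mmp8, the collagenase of neutrophil granules (chromosome 9, 7558456 to 7568485, plus strand, GRCm38), was at 0.215, 0.56 and 1 CPM in day 7 wounds, against 8.59, 53 and 3.52 CPM in day 1 wounds (-5.17 ± 1.15, adjusted p = 0.00948). In both genes every day 7 library lay below every day 1 library, and day 1 replicate 2 was the highest by far. Csf3r, through which G-CSF acts, stood at 4.74, 4.03 and 7.15 CPM in day 7 wounds, against 35.1, 93.7 and 18 CPM in day 1 wounds (-3.21 ± 0.67, adjusted p = 0.0073). Retnlg, a resistin-like gene of neutrophils, changed by -4.70 ± 1.05 on the log2 scale, with adjusted p = 0.011. The formyl peptide receptor genes Fpr1 and Fpr2 and the surface genes Trem1, Trem3 and Cd177 also fell. The member that rose was Mpo, the myeloperoxidase of primary granules, at 14.5, 12.5 and 16.9 CPM in day 7 wounds and 0.258, 0.631 and 1.71 CPM in day 1 wounds (4.02 ± 0.84, adjusted p = 0.00733), in the opposite direction to the 14 that fell. Ly6g, Camp, Ltf and Ngp, which also define neutrophils, had too few counts to test. The number that fell was 6 without day 7 replicate 1 or 2, 8 without day 1 replicate 2 and 10 to 14 without any 1 of the others. A call was lost for Mmp8 and Trem1 without day 1 replicate 2, for Retnlg and Cd177 without day 7 replicate 1 or 2 or day 1 replicate 2, for Fpr1 without day 7 replicate 1, 2 or 3, for Fpr2 without day 7 replicate 1 or 2, and for Trem3 without any 1 library except day 1 replicate 1.

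Acute-phase and alarmin genes fell with them, and the 2 lists share Lcn2, S100a8 and S100a9. Of 13 members, 9 fell and 0 rose, and in all 13 the day 7 libraries lay below the day 1 libraries. Among all genes, 40.3% did not overlap in either direction. Lcn2, the iron-binding lipocalin made by neutrophils and by stressed epithelium (chromosome 2, 32384633 to 32388252, minus strand, GRCm38), was at 67.3, 43.3 and 90.6 CPM in day 7 wounds, against 1459, 867 and 1241 CPM in day 1 wounds. Its log2 fold change of -4.15 ± 0.36 had an adjusted p of 7.62e-05. Saa3, an acute-phase serum amyloid made locally by macrophages and other cells in mice (chromosome 7, 46711998 to 46715700, minus strand, GRCm38), was at 40.6, 26.1 and 65.8 CPM in day 7 wounds, against 1514, 1084 and 735 CPM in day 1 wounds (-4.65 ± 1.17, adjusted p = 0.016). Both genes were high in every day 1 library. Saa1 was at 2.73, 1.29 and 5.34 CPM in day 7 wounds and at 51.9, 93.7 and 66.8 CPM in day 1 wounds (-4.51 ± 0.79, adjusted p = 0.00342); Saa1 and Saa2 are near-identical copies, so their counts are uncertain. Hp, haptoglobin, which binds free haemoglobin, changed by -3.49 ± 0.76 on the log2 scale, with adjusted p = 0.00846. S100a9, a subunit of calprotectin, was at 26.6, 18.6 and 45.8 CPM in day 7 wounds, against 378, 451 and 79.9 CPM in day 1 wounds (-3.32 ± 0.62, adjusted p = 0.00455). Its partner S100a8 did not pass, at 57.3, 61.2 and 63.4 CPM in day 7 wounds and 475, 216 and 67.9 CPM in day 1 wounds (-2.06 ± 0.75, adjusted p = 0.0651), with a day 1 level that came close to day 7 in replicate 3. Without day 7 replicate 1 or 2, 5 members fell, and 8 to 10 without any 1 of the others. The call did not hold for Saa3 and Saa2 without day 7 replicate 1 or 2.

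The signals that call neutrophils in were lower too. Of 9 tested chemokine and colony-stimulating factor genes of neutrophils, 5 fell and 0 rose, with a median of -3.37. Cxcl2, a ligand of Cxcr2 (chromosome 5, 90903871 to 90905938, plus strand, GRCm38), was at 1.79, 1.96 and 2 CPM in day 7 wounds, against 34.3, 10.1 and 21.8 CPM in day 1 wounds (-3.52 ± 0.67, adjusted p = 0.00497). Cxcl3, a neighbouring ligand of that receptor on the same chromosome, was at 1.58, 0.728 and 1.27 CPM in day 7 wounds, against 22, 10.8 and 4.19 CPM in day 1 wounds (-3.37 ± 1.00, adjusted p = 0.0304). Neither gene overlapped between the days. Ccl4 and Ccl3, which attract monocytes and neutrophils, fell by 4.39 (SE 0.99) and 3.59 (SE 0.93) on the log2 scale. Ppbp, the platelet chemokine, fell by 4.28 (SE 1.00). Cxcl5, made by epithelium, did not pass (-1.20 ± 0.95, adjusted p = 0.395). The number that fell was 2 without day 7 replicate 1 or 2, 3 without day 1 replicate 2 or day 7 replicate 3 and 4 or 5 without the others. Significance was lost for Cxcl3 without any 1 library except day 1 replicate 3, for Ccl4 without day 7 replicate 1, for Ccl3 without day 7 replicate 1, 2 or 3, and for Ppbp without day 7 replicate 2 or day 1 replicate 2. The promoters of Cxcl2 and Cxcl3 are shown because both genes fell and each holds a match to the letters that NF-kappaB proteins prefer, GGGA, any 1 base and TTTCC. They run from 250 bases before to 30 after the start of the gene (RefSeq, GRCm38.p6), 5′ to 3′ on the gene's strand, at chr5:90903649-90903928 and chr5:90785851-90786130, both on the plus strand, with the match in capitals.
Cxcl2: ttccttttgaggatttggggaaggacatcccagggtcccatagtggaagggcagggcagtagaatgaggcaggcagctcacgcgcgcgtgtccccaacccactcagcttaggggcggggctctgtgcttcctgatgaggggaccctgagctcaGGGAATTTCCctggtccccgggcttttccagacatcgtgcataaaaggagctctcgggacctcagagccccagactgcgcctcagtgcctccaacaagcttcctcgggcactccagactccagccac
Cxcl3: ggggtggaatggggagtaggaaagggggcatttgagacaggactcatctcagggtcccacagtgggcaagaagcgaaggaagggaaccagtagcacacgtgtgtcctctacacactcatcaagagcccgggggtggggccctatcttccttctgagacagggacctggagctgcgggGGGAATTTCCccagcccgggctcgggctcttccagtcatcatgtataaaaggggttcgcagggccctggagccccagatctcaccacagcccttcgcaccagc
The match began 97 bases before the start of Cxcl2 and 73 before that of Cxcl3. Over the window from 250 bases before to 50 after the start, and on either strand, 5 of the 9 genes of this list with a promoter sequence held it (55.6%), against 0.466% of all 27025 genes. The 5 were Cxcl1, Cxcl2, Cxcl3, Csf1 and the cytokine gene Il6. Only Cxcl2 and Cxcl3 of these were among the genes that fell, and Ccl3, Ccl4 and Ppbp, which also fell, were not among the genes with a match. A match describes the letters only.

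**Figure D2:**
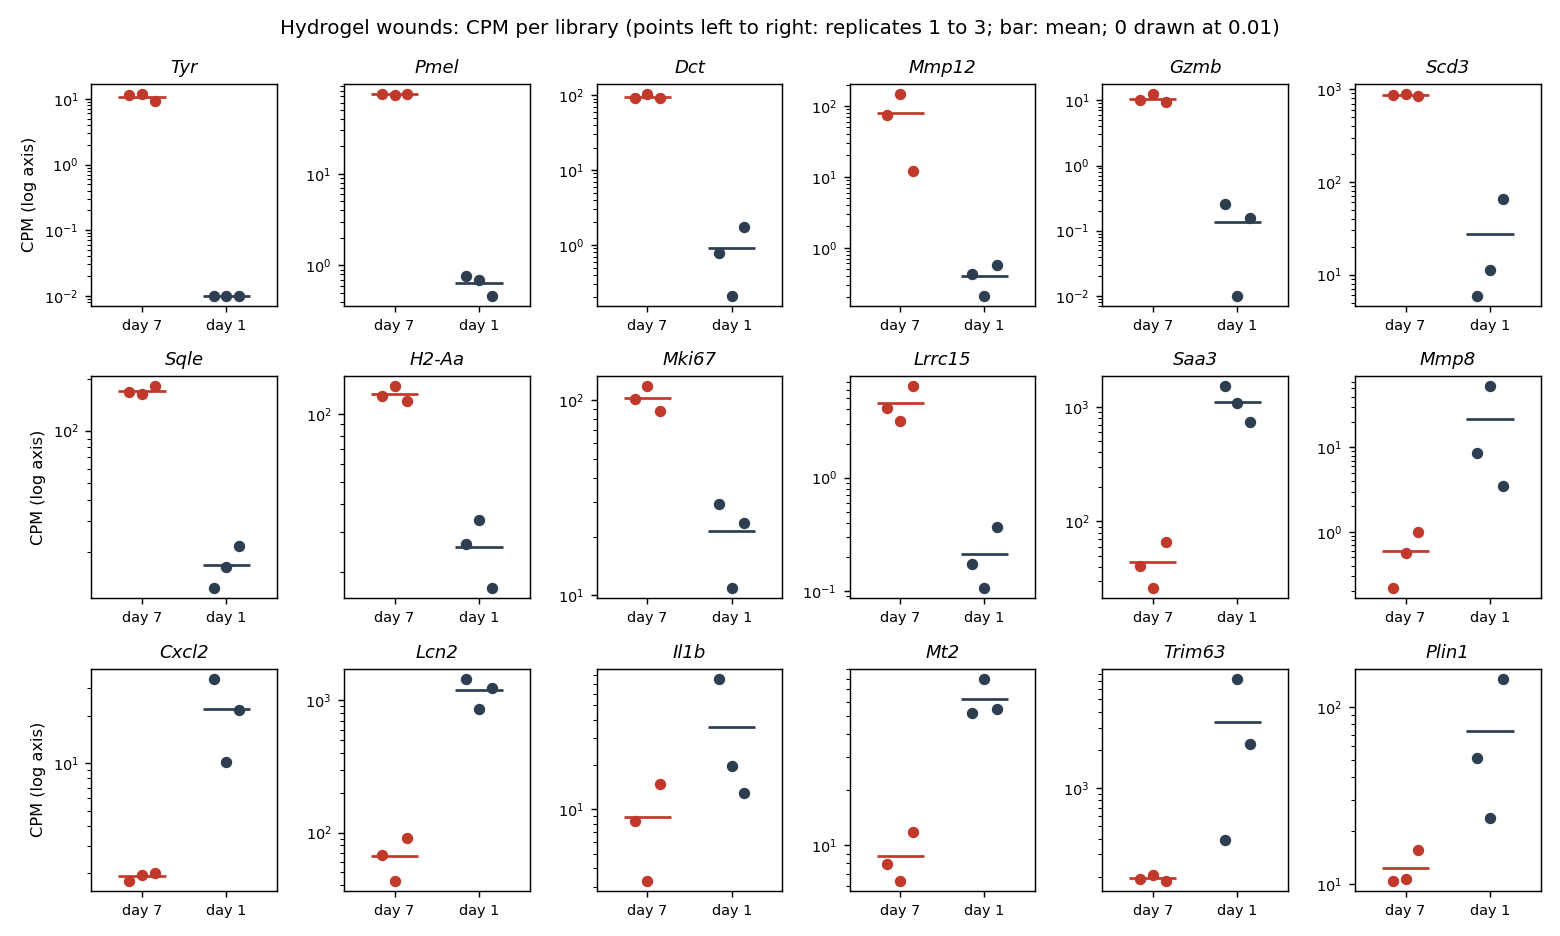
CPM on a log axis for 18 genes, 1 panel each, with day 7 hydrogel wounds (red) left of day 1 hydrogel wounds (dark), replicates 1 to 3 from left to right and the mean as a bar; values of 0 are drawn at 0.01. The day 7 points lie apart from the day 1 points in every panel but that of Il1b, where day 7 replicate 3 (14.8 CPM) lies above day 1 replicate 3 (12.8 CPM).

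Other cytokine genes moved less uniformly. The list named for the IL-1, IL-6 and TNF families also holds receptor and feedback genes and an IL-10 family gene. Of its 23 members, 6 fell and 1 rose, with a median of -1.22. Without 1 library 2 to 4 fell, except without day 1 replicate 3, where 7 fell. The lowest count came without day 1 replicate 2 or day 7 replicate 1 or 2. Socs3, the feedback inhibitor of IL-6-type receptors, was at 46.4, 27 and 58.1 CPM in day 7 wounds, against 118, 225 and 305 CPM in day 1 wounds (-2.30 ± 0.41, adjusted p = 0.00378), and Il6st, the gp130 chain that those receptors share, at 179, 173 and 192 CPM in day 7 wounds, against 385, 684 and 476 CPM in day 1 wounds (-1.51 ± 0.27, adjusted p = 0.00389). Il1b, the central IL-1 cytokine, passed narrowly with overlapping groups, at 8.4, 3.3 and 14.8 CPM in day 7 wounds and 75.7, 19.5 and 12.8 CPM in day 1 wounds (-2.02 ± 0.66, adjusted p = 0.0458), and its log2 fold change was -0.88 without day 1 replicate 1. Tnf and Il6 did not pass, with log2 fold changes of -1.56 ± 0.66 and -0.98 ± 0.68. The member that rose was Il19, a cytokine of the IL-10 family, at 0.861, 1.01 and 0.401 CPM in day 7 wounds and 0.0859, 0.0526 and 0.104 CPM in day 1 wounds. Among 19 genes of NF-kappaB and Toll-like receptors, 5 fell and 1 rose. Relb and Nfkb2, the subunits of the alternative pathway, fell by 0.94 (SE 0.17, adjusted p = 0.00408) and 0.83 (SE 0.21, adjusted p = 0.016) on the log2 scale. Nfkbiz, a nuclear co-regulator, rose by 1.29 ± 0.28 (adjusted p = 0.00807). The number that fell was 2 without day 7 replicate 1 or 2 and 4 or 5 without any 1 of the others. Of the 19 other chemokines tested, 3 fell and 1 rose, and with 1 library left out 0 or 1 fell and 1 to 3 rose. Cxcl16, a ligand of Cxcr6 on T cells, was at 54, 59.1 and 55 CPM in day 7 wounds and 22.3, 13.7 and 13 CPM in day 1 wounds (1.78 ± 0.38, adjusted p = 0.00785). Cxcl13, which attracts B cells, and Ccl9 fell by 4.85 and 2.95, with log2 fold changes of -4.29 and -2.63 that no longer passed without day 1 replicate 1. The threshold was missed for Il1b without any 1 library except day 7 replicate 3 and day 1 replicate 3, for Il19 without any 1 library except day 7 replicate 3 and day 1 replicate 1, for Nfkb2 without day 7 replicate 1 or 2, and for Cxcl13 and Ccl9 without any 1 library.

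Monocyte genes fell in 6 of 12 cases, and macrophage markers in 2 of 19. In the monocyte list 1 member rose, with a median of -2.22. The monocyte genes that fell numbered 3 without day 1 replicate 2 or day 7 replicate 1 or 2, 4 without day 7 replicate 3 and 6 or 7 without the others. Those of the macrophage list numbered 1 or 2. Chil3 (also known as Ym1), a chitinase-like gene of recruited monocytes, was at 1.29, 1.79 and 1.34 CPM in day 7 wounds, against 19.2, 64.2 and 11.2 CPM in day 1 wounds (-4.41 ± 0.92, adjusted p = 0.00724). Fcgr1, the high-affinity receptor of IgG, fell by 2.79 (SE 0.62, adjusted p = 0.00966). The member that rose, Cx3cr1, is the fractalkine receptor of patrolling monocytes and resident macrophages and stood at 1.08, 1.4 and 1.27 CPM in day 7 wounds and 0.172, 0.0526 and 0.414 CPM in day 1 wounds. Of 19 macrophage markers tested, 2 fell, Cd68 by 2.11 (SE 0.43, adjusted p = 0.00636) and Msr1, a scavenger receptor, by 2.55 (SE 0.71, adjusted p = 0.0235). Adgre1, the F4/80 antigen, did not pass at 5.74, 4.37 and 6.15 CPM in day 7 wounds and 19.8, 16.7 and 9.78 CPM in day 1 wounds (-1.51 ± 0.78, adjusted p = 0.185). Of 13 genes of alternative activation, the state linked to tissue repair, 6 fell and 1 rose. Those that fell were 2 without day 7 replicate 1 or 2, 3 without day 7 replicate 3 or day 1 replicate 2, and 4 or 5 without the others. Lyve1 and Stab1, markers of resident macrophages and of lymphatic vessels, fell by 2.37 (SE 0.47) and 1.45 (SE 0.37). Mgl2, a lectin of dermal macrophages and dendritic cells, rose by 1.72 ± 0.37 (adjusted p = 0.00799). Arg1, the arginase of repair macrophages, was at 29.7, 27.1 and 25.1 CPM in day 7 wounds and at 161, 109.5 and 11.5 CPM in day 1 wounds and overlapped between them. It passed (-1.78 ± 0.58, adjusted p = 0.0453), and its direction reversed with limma-voom (0.58, adjusted p = 0.244). The macrophage metalloelastase Mmp12 (chromosome 9, 7344381 to 7369499, plus strand, GRCm38) went the other way. It was at 74.1, 148 and 12 CPM in day 7 wounds, against 0.43, 0.21 and 0.569 CPM in day 1 wounds (7.58 ± 1.39, adjusted p = 0.00415), with day 7 replicate 3 well below the other 2 libraries of its day. A call was lost for Cx3cr1 without day 7 replicate 2 or day 1 replicate 2, for Msr1 without any 1 library except day 1 replicate 1 and day 1 replicate 3, for Stab1 without day 7 replicate 1 or 2, and for Arg1 without any 1 library except day 1 replicate 3.

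Genes of antigen presentation and of T cells rose over the same interval. Of 14 dendritic cell and class II genes, 8 rose and 0 fell, with a median of 1.68. H2-Aa, the alpha chain of class II (chromosome 17, 34282744 to 34287823, minus strand, GRCm38), was at 119.9, 133 and 114 CPM in day 7 wounds, against 26.5, 33.9 and 16.9 CPM in day 1 wounds (2.25 ± 0.39, adjusted p = 0.00327). Cd74, the invariant chain, was at 179, 180.3 and 172 CPM in day 7 wounds and 40.8, 78.3 and 38.8 CPM in day 1 wounds (1.75 ± 0.37, adjusted p = 0.00802), and Ciita, the master regulator of class II genes, also rose. The number that rose was 9 without day 1 replicate 1 and 3 to 5 without any 1 of the other 5 libraries. Of 20 tested T and NK cell genes, 6 rose and 0 fell, with a median of 2.04. Gzmb, a cytotoxic granule protease (chromosome 14, 56258838 to 56262260, minus strand, GRCm38), was at 10.1, 12.7 and 9.29 CPM in day 7 wounds, against 0.258, 0 and 0.155 CPM in day 1 wounds (6.35 ± 1.07, adjusted p = 0.00284). Cd4, the co-receptor of helper T cells, was at 0.861, 1.85 and 1 CPM in day 7 wounds and 0.172, 0.105 and 0.207 CPM in day 1 wounds (2.91 ± 0.49, adjusted p = 0.00298). Icos and Il2rb, receptors of activated lymphocytes, rose by 3.09 ± 0.66 and 2.75 ± 0.62. These levels were low in both groups, since the whole list summed to 39.4 to 51.2 CPM in day 7 wounds and 8.44 to 14.0 CPM in day 1 wounds. Gzmc, another granzyme, was at 9.98, 7.39 and 12 CPM in day 7 wounds and 0, 0.158 and 0.311 CPM in day 1 wounds (5.77 ± 0.81, adjusted p = 0.0013), uncertain between near-identical granzyme copies. Chil4, a chitinase-like neighbour of Chil3, was at 8.26, 10.1 and 3.81 CPM in day 7 wounds and had 0 counts in each day 1 library, which makes it at least 125-fold higher if day 1 is set at a floor of 3 counts in all 3 libraries together. Chil3 and Chil4 are close copies, so that reads may be split between them, and they moved in opposite directions. B cell and mast cell genes had 1 member each that rose, Jchain and Kit. The call did not hold for Ciita without any 1 library except day 7 replicate 3 and day 1 replicate 1, for Jchain without any 1 library, and for Kit without any 1 library except day 1 replicate 1.

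The pigment list had the highest median change of all the lists. Of 11 melanocyte genes, all tested, 9 rose and 0 fell, with a median of 6.41, or 4.99 with the 3 genes that had 0 counts at day 1 set at their bounds. Tyr, the tyrosinase that starts melanin synthesis (chromosome 7, 87424771 to 87493512, minus strand, GRCm38), was at 11.3, 12 and 9.15 CPM in day 7 wounds and had 0 counts in each day 1 library, at least 181-fold higher with day 1 set at that floor (adjusted p = 0.00455). Dct, dopachrome tautomerase (chromosome 14, 118012790 to 118052244, minus strand, GRCm38), was at 90.4, 104 and 91.5 CPM in day 7 wounds, against 0.773, 0.21 and 1.76 CPM in day 1 wounds (6.68 ± 1.54, adjusted p = 0.0111). Tyrp1, its relative in the pathway (chromosome 4, 80834123 to 80851718, plus strand, GRCm38), was at 54.6, 60.4 and 61.7 CPM in day 7 wounds, against 1.03, 1.37 and 1.5 CPM in day 1 wounds (5.48 ± 1.12, adjusted p = 0.00673). The 3 enzymes stood within a narrow range in the day 7 libraries and near or at 0 in each day 1 library. Pmel, the fibril protein of melanosomes (chromosome 10, 128705180 to 128720238, plus strand, GRCm38), was at 75, 72.7 and 74.8 CPM in day 7 wounds, against 0.773, 0.684 and 0.466 CPM in day 1 wounds (6.86 ± 1.02, adjusted p = 0.00156). Mlana, another melanosome protein, was at 6.96, 8.23 and 7.62 CPM in day 7 wounds, against 0.258, 0.0526 and 0 CPM in day 1 wounds (6.41 ± 1.01, adjusted p = 0.00203). The transporters Slc45a2 and Oca2 had 0 counts at day 1 and were at least 31.7-fold and 26.7-fold higher at day 7. Of the 2 members that did not pass, 1 was Mitf, a transcription factor of the lineage that is also expressed in other cells. Mitf was at 18.8, 21.2 and 14.6 CPM in day 7 wounds and 18.6, 29.2 and 17.7 CPM in day 1 wounds (-0.26 ± 0.26, adjusted p = 0.505). Sox10, a factor shared with Schwann cells and not a member of the melanocyte list, did not pass either. It was at 23.5, 21.1 and 29.8 CPM in day 7 wounds and 26.5, 8.05 and 8.54 CPM in day 1 wounds (0.80 ± 0.56, adjusted p = 0.332). The number that rose was 4 without day 1 replicate 2, 6 without day 1 replicate 3 or any 1 day 7 library and 7 without day 1 replicate 1. Significance was lost for Dct and Slc45a2 without day 1 replicate 2, and for Oca2 without any 1 library except day 1 replicate 1. The promoters of the 3 enzymes are shown because they rose together and each holds TCATGTG, the M-box letters bound by Mitf. They run from 250 bases before to 30 after the start (RefSeq, GRCm38.p6), 5′ to 3′ on the gene's strand, at chr7:87493483-87493762 on the minus strand, chr4:80833963-80834242 on the plus strand and chr14:118052217-118052496 on the minus strand, with each match on either strand in capitals.
Tyr: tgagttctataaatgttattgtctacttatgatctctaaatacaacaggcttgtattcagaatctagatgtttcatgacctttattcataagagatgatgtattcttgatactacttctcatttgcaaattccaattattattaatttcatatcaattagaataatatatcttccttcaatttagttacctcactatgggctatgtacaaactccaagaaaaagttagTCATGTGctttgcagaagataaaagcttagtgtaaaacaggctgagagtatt
Tyrp1: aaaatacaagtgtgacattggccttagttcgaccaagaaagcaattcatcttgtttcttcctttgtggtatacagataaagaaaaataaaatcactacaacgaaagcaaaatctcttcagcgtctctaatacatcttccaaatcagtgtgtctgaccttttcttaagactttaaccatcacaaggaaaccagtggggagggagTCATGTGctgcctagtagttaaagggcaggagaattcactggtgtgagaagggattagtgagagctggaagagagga
Dct: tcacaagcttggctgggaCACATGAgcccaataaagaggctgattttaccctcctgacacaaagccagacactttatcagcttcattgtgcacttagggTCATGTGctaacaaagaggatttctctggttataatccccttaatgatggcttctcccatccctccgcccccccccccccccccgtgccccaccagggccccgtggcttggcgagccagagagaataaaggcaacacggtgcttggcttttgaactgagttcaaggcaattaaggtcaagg
The match began 22 bases before the start in Tyr and 47 in Tyrp1, and Dct held it 151 bases before the start and, on the other strand, 232 before. Over the window from 250 bases before to 50 after the start, 5 of the 7 melanocyte genes with a promoter sequence held it (71.4%), against 4.31% of all 27025 genes. This motif was chosen after the values had been seen.

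Sebaceous gland genes rose in 12 of 15 cases, with 0 that fell and a median of 3.54. In all 15 the day 7 libraries lay above the day 1 libraries, while 40.3% of all genes did not overlap in either direction. Scd3, the stearoyl-CoA desaturase of sebocytes, was at 869, 892 and 835 CPM in day 7 wounds, against 5.93, 11.3 and 64.7 CPM in day 1 wounds (4.98 ± 1.27, adjusted p = 0.0167). Elovl3, a fatty acid elongase of sebaceous glands, was at 851, 856 and 895 CPM in day 7 wounds, against 7.56, 13.1 and 90 CPM in day 1 wounds (4.55 ± 1.14, adjusted p = 0.0155). The summed list was at 6868 to 6963 CPM in day 7 wounds, against 292, 242 and 1024 CPM in day 1 wounds, and day 1 replicate 3 was the highest of its day here and in both genes. Soat1, which esterifies cholesterol (chromosome 1, 156424525 to 156474331, minus strand, GRCm38), was at 456, 475 and 434 CPM in day 7 wounds, against 19.8, 31.5 and 65.9 CPM in day 1 wounds (3.54 ± 0.60, adjusted p = 0.0031). Awat1, a wax ester synthase, and Krt79, a keratin of the sebaceous duct, rose by 4.76 ± 1.39 and 4.26 ± 1.28. Prdm1, a transcription factor found in sebocytes and in lymphocytes, rose by 2.73 ± 0.65 (adjusted p = 0.0124). The number that rose was 13 without day 1 replicate 3 and 2 to 7 without any 1 of the other 5 libraries, lowest without day 1 replicate 2. The threshold was missed for Scd3, Elovl3 and Prdm1 without day 1 replicate 2, and for Awat1 and Krt79 without any 1 library except day 1 replicate 3.

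Cholesterol synthesis genes rose in 12 of 23 cases, with 0 that fell and a median of 1.46. Sqle, squalene epoxidase (chromosome 15, 59315077 to 59331192, plus strand, GRCm38), was at 167, 164 and 181 CPM in day 7 wounds, against 12.3, 16.4 and 21.7 CPM in day 1 wounds (3.34 ± 0.64, adjusted p = 0.00499). Msmo1, a sterol methyl oxidase later in the pathway, was at 652, 678 and 650.04 CPM in day 7 wounds, against 20.5, 22.4 and 61.2 CPM in day 1 wounds (4.25 ± 0.82, adjusted p = 0.00502). Both genes stood at their lowest in day 1 replicate 1. Mvd and Nsdhl rose by 2.36 ± 0.43 and 2.65 ± 0.50, and Cyp51 and Lss by 3.17 ± 0.79 and 3.10 ± 0.69. The regulator Srebf2 did not pass, with a log2 fold change of 0.73 ± 0.30. Counts of members that rose were 5 without day 1 replicate 2 and 8 to 11 without any 1 of the others. A call was lost for Cyp51 and Lss without day 1 replicate 2. The sterol regulatory element, ATCAC, any 1 base and CCAC, was found in 0 of the 15 cholesterol synthesis genes with a promoter sequence and in 0.27% of all genes, which says only that these letters are not in this window. Fatty acid and sterol genes are active in sebaceous glands too, and the sebaceous list rose in the same libraries; its part in this result was not tested.

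Of 16 keratinocyte genes of the basal layer, where cells divide, edgeR called 0 (7 at an unadjusted p below 0.05, 3 with DESeq2 and 14 with limma-voom), while 14 had log2 fold changes above 0 and the median was 0.99. Krt14 was given above (1.38 ± 0.59, adjusted p = 0.11), and Krt5, its partner keratin, was at 2856, 2808 and 2913 CPM in day 7 wounds and 1479, 1446 and 944 CPM in day 1 wounds (1.15 ± 0.53, adjusted p = 0.135). Both genes were higher in each day 7 library than in each day 1 library, and 2 genes of the list passed without day 1 replicate 1. Of 23 tested genes of differentiated keratinocytes, 7 rose and 0 fell, with a median of 0.98. Casp14, a protease of the cornifying layer, was at 25.3, 31.5 and 21.3 CPM in day 7 wounds, against 2.32, 5.31 and 1.76 CPM in day 1 wounds (3.05 ± 0.64, adjusted p = 0.0074). Calml3, a calmodulin-like protein of epithelium, was at 91.9, 110.05 and 99.7 CPM in day 7 wounds, against 11.3, 7.47 and 7.76 CPM in day 1 wounds (3.51 ± 0.91, adjusted p = 0.0182). Krt10, the main suprabasal keratin, did not follow them, at 78.5, 95.5 and 76.8 CPM in day 7 wounds and 22.3, 349 and 45.4 CPM in day 1 wounds (-0.73 ± 0.80, adjusted p = 0.542). Day 1 replicate 2 alone set that mean, and without it the log2 fold change of Krt10 was 1.30. Lor, loricrin of the cornified envelope, was also highest in that library, with 9.98, 12 and 7.48 CPM in day 7 wounds, against 2.75, 170.4 and 8.95 CPM in day 1 wounds (-2.63 ± 1.05, adjusted p = 0.0899). Differentiated keratinocyte genes summed to 964 to 1109 CPM in day 7 wounds and to 318, 1635 and 284 CPM in day 1 wounds. The number that rose was 6 without day 1 replicate 2, 3 without day 1 replicate 1, where 1 fell, and 1 or 2 without any 1 of the other 4 libraries. The call did not hold for Calml3 without day 7 replicate 2 or day 1 replicate 2 or 3.

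Of 15 tested genes of the wound-edge keratinocyte, the activated state that migrates over the wound bed, 1 rose and 1 fell. Slpi, an inhibitor of leukocyte elastase, was at 6.46, 5.21 and 5.95 CPM in day 7 wounds, against 137, 55.7 and 43.5 CPM in day 1 wounds (-3.74 ± 0.57, adjusted p = 0.00173). Stfa3, a cysteine protease inhibitor with near-identical copies that make its counts uncertain, was at 106, 172 and 84.6 CPM in day 7 wounds, against 16.2, 7.36 and 10.7 CPM in day 1 wounds (3.41 ± 0.65, adjusted p = 0.00479). The wound keratin Krt6a overlapped between the days, at 67.2, 68 and 81.6 CPM in day 7 wounds and 149, 90.6 and 50.1 CPM in day 1 wounds (-0.41 ± 0.65), and its sign turned to 0.03 without day 1 replicate 1. Krt17 did not pass at 764, 704 and 830.2 CPM in day 7 wounds and 267, 304 and 114 CPM in day 1 wounds (1.74 ± 1.02, adjusted p = 0.238). Hair follicle genes rose in 4 of 24 tested cases. Lgr5, a marker of follicle stem cells (chromosome 10, 115450311 to 115587759, minus strand, GRCm38), was at 8.97, 12.6 and 7.88 CPM in day 7 wounds, against 1.37, 0.0526 and 0.466 CPM in day 1 wounds (4.07 ± 0.76, adjusted p = 0.00435), and Lef1, a WNT-responsive factor of hair matrix, at 7.82, 8.51 and 5.01 CPM in day 7 wounds, against 0.773, 0.21 and 0.259 CPM in day 1 wounds (4.21 ± 1.18, adjusted p = 0.0245). Krt28, of the inner root sheath, and Sox21, of the hair shaft, rose by 5.12 ± 1.62 and 2.47 ± 0.83. The summed hair follicle list was 142 to 178 CPM at day 7, between the 243 CPM of day 1 replicate 1 and the 13.7 and 18.7 CPM of the other day 1 libraries. The number that rose was 4 without day 1 replicate 1 and 1 or 2 without any 1 of the others. Significance was lost for Lef1 without any 1 library except day 7 replicate 3 and day 1 replicate 1, and for Krt28 and Sox21 without any 1 library.

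**Figure D3:**
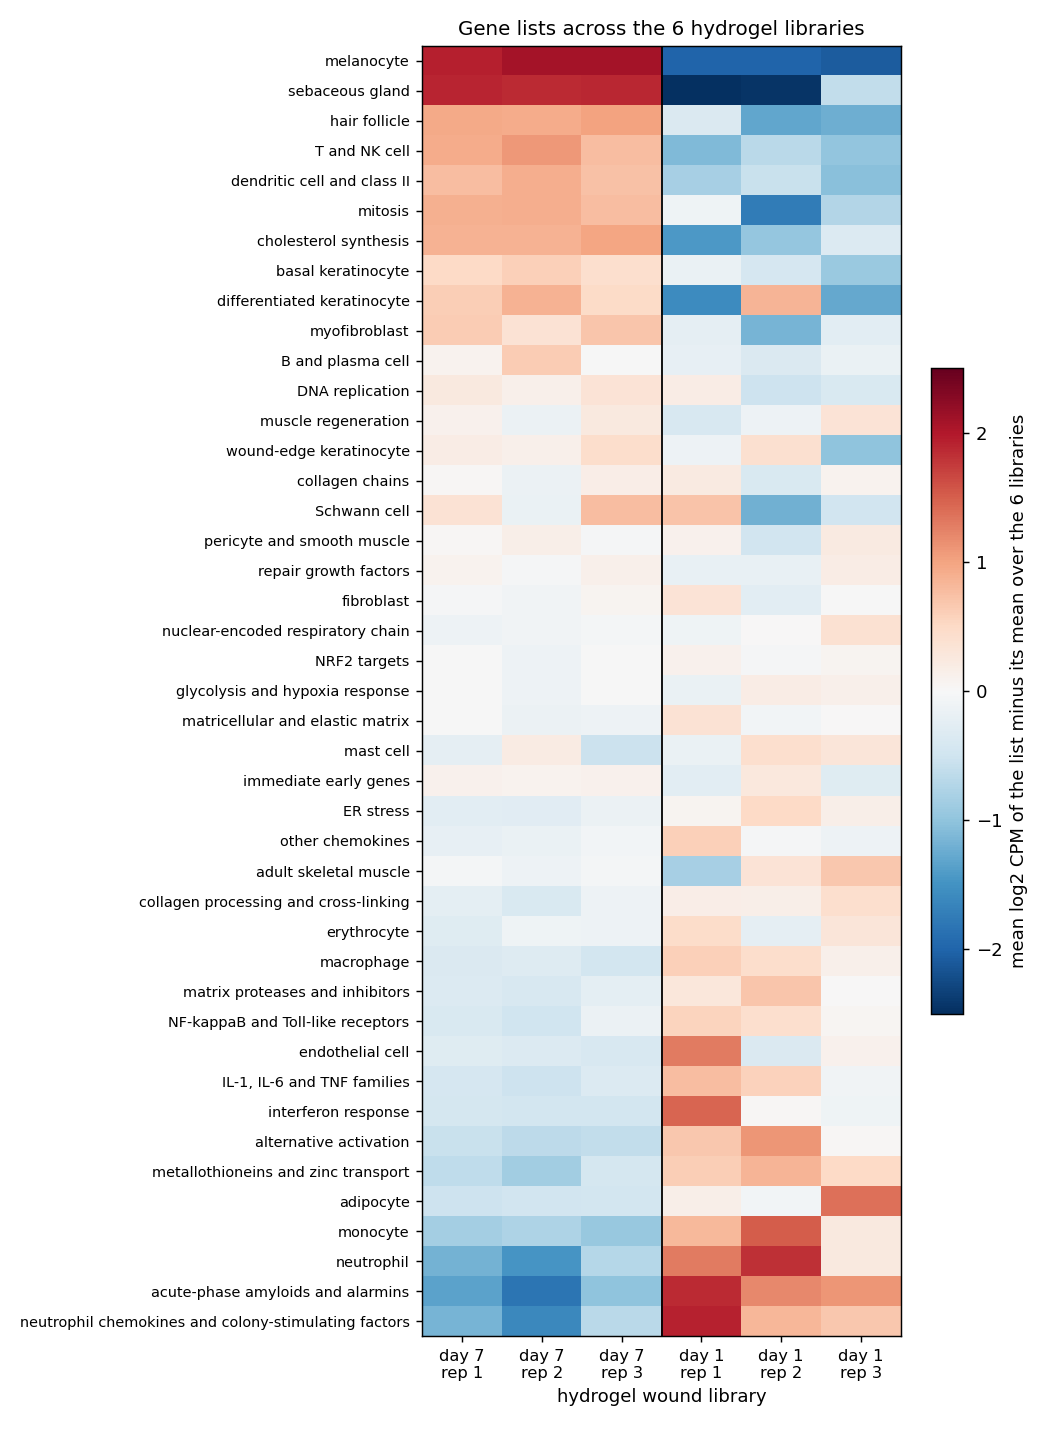
Mean log2 CPM of the tested members of each gene list (rows) in each hydrogel wound library (columns, day 7 left of day 1), less the mean of the row over the 6 libraries. The day 7 columns resemble each other, while day 1 replicate 1 departs from the other day 1 columns in the endothelial, interferon and hair follicle rows.

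Mitosis genes were higher at day 7. Of 24 members, 14 rose and 0 fell, with a median of 1.59. In 23 the day 7 libraries lay above the day 1 libraries, while 40.3% of all genes did not overlap in either direction. Mki67, the proliferation antigen Ki-67 (chromosome 7, 135689784 to 135714039, minus strand, GRCm38), was at 102, 118 and 88.1 CPM in day 7 wounds, against 29.6, 10.9 and 23.4 CPM in day 1 wounds (2.27 ± 0.61, adjusted p = 0.0211). Ccnb2, a cyclin of entry into mitosis (chromosome 9, 70409280 to 70421547, minus strand, GRCm38), was at 22.2, 20.4 and 17.6 CPM in day 7 wounds, against 6.96, 2.31 and 5.12 CPM in day 1 wounds (2.07 ± 0.50, adjusted p = 0.0137). Ttk, a spindle checkpoint kinase, was at 16.2, 15.1 and 13.4 CPM in day 7 wounds, against 4.47, 1.74 and 2.85 CPM in day 1 wounds (2.32 ± 0.60, adjusted p = 0.0178). In these 3 genes day 1 replicate 1 was the highest and replicate 2 the lowest of its day. The count depended on single libraries: 22 members rose without day 1 replicate 1, 4 without day 7 replicate 3, 1 without day 1 replicate 3, day 7 replicate 1 or day 7 replicate 2, and 0 without day 1 replicate 2. The threshold was missed for Mki67 and Ttk without any 1 library except day 7 replicate 3 and day 1 replicate 1, for Ccnb2 without day 1 replicate 2, and for Pola1 without any 1 library except day 1 replicate 1. DNA replication genes had 1 member of 20 that rose (5 without day 1 replicate 1 and 0 without any 1 of the others), Pola1, a subunit of DNA polymerase alpha (1.02 ± 0.34, adjusted p = 0.0494). The promoter of Ccnb2 is shown because it holds TTTGAA, the cell cycle homology region through which many mitotic genes are repressed in resting cells. It runs from 250 bases before to 30 after the start (RefSeq, GRCm38.p6, chr9:70421525-70421804, minus strand), 5′ to 3′ on the gene's strand, with matches in capitals.
Ccnb2: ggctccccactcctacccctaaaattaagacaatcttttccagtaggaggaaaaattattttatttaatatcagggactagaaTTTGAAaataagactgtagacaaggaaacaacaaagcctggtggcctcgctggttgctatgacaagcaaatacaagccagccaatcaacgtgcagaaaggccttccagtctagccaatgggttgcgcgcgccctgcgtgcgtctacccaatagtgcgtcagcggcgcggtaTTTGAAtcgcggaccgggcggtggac
One match began 167 bases before the start and the other at the fifth base of the transcript. Over the window from 250 bases before to 50 after the start and on either strand, 15 of the 20 mitosis genes with a promoter sequence held it (75%), against 20.2% of all genes.

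Among stromal genes, the myofibroblast list rose in 4 of 13 tested cases, with 0 that fell, and the fibroblast list in 1 of 19. Without 1 library the myofibroblast count was 5 without day 1 replicate 1, 2 without day 1 replicate 2 or day 7 replicate 1 and 3 without any 1 of the others, and the fibroblast count 0 or 1. Lrrc15, a surface protein of TGF-beta-activated fibroblasts (chromosome 16, 30269302 to 30283256, minus strand, GRCm38), was at 4.09, 3.19 and 6.41 CPM in day 7 wounds, against 0.172, 0.105 and 0.362 CPM in day 1 wounds (4.34 ± 0.39, adjusted p = 7.62e-05), and it passed under each of the 17 alternatives, the only named gene to do so. Kif26b was at 9.12, 7.67 and 8.75 CPM in day 7 wounds and 0.687, 0.947 and 1.6 CPM in day 1 wounds (2.95 ± 0.56, adjusted p = 0.00489). Postn, the matricellular protein periostin, was at 222, 242 and 176 CPM in day 7 wounds, against 88.8, 20.5 and 55.1 CPM in day 1 wounds (1.97 ± 0.59, adjusted p = 0.0328). Inhba, the activin A subunit, rose by 2.19 ± 0.57 (adjusted p = 0.0177). Each of these genes was higher in every day 7 library than in any day 1 library. Acta2, the smooth muscle actin that defines myofibroblasts, overlapped widely, at 171, 137 and 206 CPM in day 7 wounds and 319, 70 and 169.8 CPM in day 1 wounds (-0.12 ± 0.39, adjusted p = 0.859). Its sign changed to positive under 4 of the 17 alternatives. These included limma-voom, library totals in place of TMM (0.13) and the fit without day 1 replicate 1 (0.51). A call was lost for Postn without any 1 library except day 1 replicate 1, and for Inhba without day 7 replicate 1 or day 1 replicate 2.

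Collagen chain genes passed in 1 of 19 cases in hydrogel wounds. The gene that fell was Col4a1 of basement membranes (-1.27 ± 0.41, adjusted p = 0.0436), and the list median was 0.10. Col1a1 was at 348, 333 and 397 CPM in day 7 wounds and 208, 209 and 267 CPM in day 1 wounds (0.66 ± 0.37, adjusted p = 0.223), and Col3a1 at 557, 509.97 and 581 CPM in day 7 wounds and 791, 496 and 793 CPM in day 1 wounds (-0.34 ± 0.63, adjusted p = 0.739). Col1a1 did not overlap between the days and Col3a1 did, and neither difference passed. Among 17 genes of collagen processing and cross-linking, 5 fell and 1 rose. Tgm2, a transglutaminase, was at 291, 262 and 342 CPM in day 7 wounds, against 765, 1137 and 1157 CPM in day 1 wounds (-1.77 ± 0.35, adjusted p = 0.0061). The lysyl oxidase genes Loxl1 and Loxl4 fell, Loxl4 by 1.71 (SE 0.50, adjusted p = 0.0298), and Adamts14, a procollagen peptidase, rose by 0.99 ± 0.29 (adjusted p = 0.0306). In the collagen processing list 5 fell and 1 rose without day 1 replicate 1 too, and 1 fell and 0 rose without any 1 of the other 5 libraries. Of 18 matrix proteases and inhibitors, 5 fell (3 without day 1 replicate 2 or day 7 replicate 2 and 4 to 6 without any 1 of the others) and Mmp12 rose. Timp1, a metalloproteinase inhibitor, was at 14.1, 10.5 and 23.1 CPM in day 7 wounds, against 142, 109 and 57.2 CPM in day 1 wounds (-2.69 ± 0.51, adjusted p = 0.00457). Mmp9, the gelatinase of neutrophils and keratinocytes, did not pass at 6.68, 5.82 and 8.62 CPM in day 7 wounds and 8.59, 42.6 and 6.99 CPM in day 1 wounds (-1.46 ± 0.64, adjusted p = 0.119). Vcan, the provisional matrix proteoglycan versican, fell by 2.42 (SE 0.56, adjusted p = 0.0116), one of 2 of 21 matricellular and elastic genes that fell, beside Fbln5, and Postn was the 1 that rose. With 1 library left out, 0 to 2 fell and 0 to 2 rose. Among repair growth factors, Bmp4 rose by 1.28 ± 0.37 (adjusted p = 0.0272) and Egfr by 0.61 ± 0.20 (adjusted p = 0.0431), the 2 of 19 members that passed. The median of these 19 was -0.04, and 7.76% of all genes rose. In that list 0 rose without any 1 library except day 1 replicate 1. The call did not hold for Col4a1 and Egfr without any 1 library, for Loxl1, Loxl4, Adamts14 and Bmp4 without any 1 library except day 1 replicate 1, for Vcan without day 7 replicate 2 or day 1 replicate 2, and for Fbln5 without any 1 library except day 1 replicate 2 and day 1 replicate 3.

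Endothelial genes fell in 2 of 22 cases, Eng and Vwf, where 10.5% of all genes fell. Vwf, the von Willebrand factor of vessel walls and platelets, was at 31.2, 29 and 23.3 CPM in day 7 wounds and 123, 34.6 and 52.7 CPM in day 1 wounds (-1.33 ± 0.42, adjusted p = 0.0397), and Eng, endoglin, at 61.4, 57.7 and 64.1 CPM in day 7 wounds and 295, 95.8 and 127 CPM in day 1 wounds (-1.50 ± 0.45, adjusted p = 0.0326). Without day 1 replicate 1 edgeR called 0 of the 22, and the list median was -0.23 in place of -1.01; 0 passed without any 1 day 7 library either, and 4 without day 1 replicate 2. Pecam1 did not pass (-1.09 ± 0.44, adjusted p = 0.0956). The interferon response list moved with the same library: 2 of 20 fell, Oas2 and Oasl1, with a median of -1.26, or -0.32 without day 1 replicate 1, where the count that fell was again 2. It was 1 without day 7 replicate 1 or 2. Oas2, an antiviral RNA sensor, was at 4.45, 4.03 and 3.87 CPM in day 7 wounds, against 17.1, 22.5 and 11.6 CPM in day 1 wounds (-2.05 ± 0.36, adjusted p = 0.00371). Pericyte and smooth muscle genes passed with edgeR in 0 of 11 cases (0 at an unadjusted p below 0.05, 0 with DESeq2 and 3 with limma-voom). In the Schwann cell list Egr2 and Erbb3 rose among 12 genes. Egr2, a factor of myelination that is also an immediate early gene, was at 60.9, 67.4 and 56.6 CPM in day 7 wounds, against 9.45, 4.84 and 6.11 CPM in day 1 wounds (3.19 ± 0.62, adjusted p = 0.00523), and its relatives Egr1 and Egr3 rose by 1.82 ± 0.21 (adjusted p = 0.000469) and 3.46 ± 0.77 (adjusted p = 0.00935), 3 of 18 immediate early genes. In that list 0 fell, but 11 members had log2 fold changes below 0 and the median was -0.28. Without day 1 replicate 1, 3 of its members rose and 3 fell. Significance was lost for Eng without any 1 library except day 1 replicate 2 and day 1 replicate 3, for Vwf without any 1 library except day 1 replicate 2, for Oasl1 without day 7 replicate 1 or 2, for Erbb3 without any 1 library except day 1 replicate 1, and for Egr3 without day 1 replicate 2.

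Among the 29 adult skeletal muscle genes edgeR called 0 (0 at an unadjusted p below 0.05, 0 with DESeq2 and 14 with limma-voom), with a median of -0.61, and their summed level was 145865 to 165334 CPM in day 7 wounds and 138342 to 276856 CPM in day 1 wounds. Of 19 genes of muscle regeneration and atrophy, 3 fell (Trim63, Fbxo32 and Cdh15) and 2 rose (Actc1 and Mymk). Trim63, the muscle ubiquitin ligase MuRF1 of atrophy (chromosome 4, 134315120 to 134329629, plus strand, GRCm38), was at 194, 207 and 186 CPM in day 7 wounds, against 389, 7283 and 2232 CPM in day 1 wounds (-4.08 ± 1.08, adjusted p = 0.0201). Fbxo32, the ligase atrogin-1, was at 284, 345 and 209 CPM in day 7 wounds, against 445, 4371 and 2424 CPM in day 1 wounds (-3.11 ± 0.93, adjusted p = 0.0317). Both were far higher in day 1 replicates 2 and 3 than in replicate 1. Mustn1, a small nuclear protein of regenerating muscle that is not in the list, was at 164, 158 and 177 CPM in day 7 wounds, against 2969.7, 4619 and 4507 CPM in day 1 wounds, and was high in each day 1 library (-4.60 ± 0.77, adjusted p = 0.00273). Actc1, the actin of heart and of developing muscle, was at 91.5, 63.3 and 135 CPM in day 7 wounds, against 14.3, 6.26 and 15.9 CPM in day 1 wounds (2.99 ± 0.88, adjusted p = 0.0299), and Mymk, the fusion protein myomaker, at 3.73, 2.41 and 4.28 CPM in day 7 wounds, against 0.516, 0.21 and 1.14 CPM in day 1 wounds (2.45 ± 0.78, adjusted p = 0.0404). Myh3 and Myh8, the embryonic and perinatal myosins, did not pass (1.46 ± 0.82 and 1.96 ± 0.72). Myog, a factor of differentiating myoblasts, also did not pass (-1.55 ± 0.72, adjusted p = 0.138). Without day 1 replicate 2 or any 1 day 7 library, 0 genes of the regeneration and atrophy list passed in either direction with edgeR. The threshold was missed for Trim63 without any 1 library except day 1 replicate 1 and day 1 replicate 3, for Fbxo32, Cdh15 and Actc1 without any 1 library except day 1 replicate 1, and for Mymk without any 1 library except day 1 replicate 3. CAGCTG, the E-box of myogenic factors, was in the promoters of 13 of 22 adult muscle genes (59.1%), of 4 of 13 regeneration and atrophy genes (30.8%) and of 18.3% of all genes.

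Adipocyte genes fell in 7 of 22 cases, with 0 that rose and a median of -1.55. Plin1, the lipid droplet coat protein, was at 10.4, 10.6 and 15.6 CPM in day 7 wounds, against 51.6, 23.7 and 145 CPM in day 1 wounds (-2.59 ± 0.78, adjusted p = 0.0332). Pnpla2, the triglyceride lipase ATGL, which muscle also expresses, was at 223, 219.98 and 239 CPM in day 7 wounds, against 653, 1666 and 1499 CPM in day 1 wounds (-2.49 ± 0.45, adjusted p = 0.00389). Adipoq, the hormone adiponectin, did not pass at 27, 23.4 and 33.4 CPM in day 7 wounds and 116, 33.8 and 254 CPM in day 1 wounds (-2.27 ± 0.89, adjusted p = 0.0868). Angptl8, a hormone of fat and liver, was at 0.144, 0.336 and 0.2 CPM in day 7 wounds and 1.98, 0.842 and 27 CPM in day 1 wounds (-5.39 ± 1.49, adjusted p = 0.0235), with day 1 replicate 3 far above the other 2. That library was also the highest of its day for Plin1 and Adipoq, and the number of adipocyte genes that fell was 2 without it, 2 without any 1 day 7 library, 5 without day 1 replicate 2 and 7 without day 1 replicate 1. A call was lost for Plin1 and Angptl8 without any 1 library except day 1 replicate 1 and day 1 replicate 2.

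In the metallothionein, NRF2 and endoplasmic reticulum stress lists every member that passed fell. Of 10 metallothionein and zinc transport genes, which respond to metals such as zinc and silver as well as to glucocorticoids, 5 fell and 0 rose. Mt2 (chromosome 8, 94172664 to 94173568, plus strand, GRCm38) was at 7.9, 6.44 and 11.9 CPM in day 7 wounds, against 52.2, 79.9 and 54.7 CPM in day 1 wounds (-2.83 ± 0.39, adjusted p = 0.00109). Mt1 was at 668, 379 and 1109 CPM in day 7 wounds, against 5601, 5915 and 3302 CPM in day 1 wounds (-2.78 ± 0.42, adjusted p = 0.00159). Slc39a14, a zinc and iron importer of the acute phase, was at 42, 30.1 and 46.6 CPM in day 7 wounds, against 150.3, 1339 and 339.6 CPM in day 1 wounds (-3.95 ± 0.63, adjusted p = 0.00219). None of the 3 overlapped between the days. Without day 7 replicate 1 or 2, 3 members of this list fell, and 4 to 6 without any 1 of the others. Of 18 targets of NRF2, the regulator of antioxidant genes, 4 fell: Gsr, glutathione reductase (-2.18 ± 0.33, adjusted p = 0.00173), Srxn1 (-1.70 ± 0.32), Txnrd1 (-1.40 ± 0.41) and Hmox1, haem oxygenase (-1.58 ± 0.49). The NRF2 count was 2 without day 1 replicate 2 or any 1 day 7 library. Of 17 genes of endoplasmic reticulum stress 5 fell, among them Xbp1 (-0.94 ± 0.20, adjusted p = 0.00801) and Atf4 (-1.19 ± 0.28, adjusted p = 0.0118). That count was 7 without day 1 replicate 1, 2 without day 7 replicate 1 or 2 and 3 or 4 without the others. Glycolysis and hypoxia genes fell in 1 of 23 cases (Bnip3, -2.03 ± 0.50), nuclear-encoded respiratory chain genes in 1 of 24 (4 without day 1 replicate 1), and erythrocyte genes with edgeR in 0 of 7 (1 at an unadjusted p below 0.05, 1 with DESeq2 and 2 with limma-voom). The call did not hold for Txnrd1 and Bnip3 without any 1 library except day 1 replicate 1 and day 1 replicate 3, for Hmox1 without any 1 library except day 1 replicate 3, and for Atf4 without day 7 replicate 1 or 2 or day 1 replicate 2.

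Some of the largest rises lay outside the lists. Serpina3b, a serine protease inhibitor of skin in mice, was at 264.745, 292 and 241 CPM in day 7 wounds, against 1.29, 2.26 and 14.3 CPM in day 1 wounds (5.46 ± 1.52, adjusted p = 0.0241). Alox12e, an epidermal lipoxygenase, was at 219.7, 216 and 224 CPM in day 7 wounds, against 2.75, 4.47 and 7.76 CPM in day 1 wounds (5.45 ± 1.36, adjusted p = 0.0157). Gsdma3, a gasdermin of mouse epidermis and follicle, was at 14.3, 11.1 and 12.9 CPM in day 7 wounds, against 0.258, 0.158 and 0.518 CPM in day 1 wounds (5.31 ± 1.23, adjusted p = 0.0111). All 3 were above their day 1 range in each day 7 library, and the serpin and lipoxygenase genes have close copies that can share reads. The cytochrome P450 genes Cyp2g1 and Cyp3a57, uncertain between family members, rose by 6.25 ± 1.14 and 5.26 ± 1.26. Atp6v1b1, a proton pump subunit of acid-secreting cells, was at 6.89, 6.27 and 6.21 CPM in day 7 wounds and had 1 count in the 3 day 1 libraries, a ratio of 322 (95% counting interval 57.3 to 12700, which covers counting error only). Among falls outside the lists were Prg4, the lubricant proteoglycan 4, at 8.33, 6.44 and 6.55 CPM in day 7 wounds, against 98.9, 263 and 125 CPM in day 1 wounds (-4.52 ± 1.29, adjusted p = 0.0271), Slfn4, a schlafen gene of mouse myeloid cells (-4.34 ± 0.68, adjusted p = 0.00203), and Wfdc21 (-4.12 ± 0.90, adjusted p = 0.00861). Significance was lost for Serpina3b without day 7 replicate 1 or 2 or day 1 replicate 2, for Alox12e, Gsdma3 and Cyp3a57 without day 1 replicate 2, and for Prg4 without any 1 library except day 1 replicate 1 and day 1 replicate 3.

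Whether these changes differed from those of diabetic control wounds was tested as the difference between the arms in their day 7 minus day 1 change. It passed for 2275 of 17592 genes (12.9%), with the hydrogel change above that of controls in 1030 (5.85%) and below it in 1245 (7.08%). Of the 3221 genes called in the hydrogel wounds, 816 also differed from controls with the same sign and 21 with the opposite sign. The hydrogel change is part of this difference and rests on the same libraries, so a shared sign was favoured in advance. In a fit of each control group alone, the common coefficient of variation was 4.69% at day 7 and 55.7% at day 1. The median chi-square per gene of control day 7 pairs was 0.644 to 0.797, where sampling noise alone gives 0.455. This small spread entered the shared estimate too, and how far the count rested on it was not tested. Control day 1 replicate 1 stood apart from its group, with 2241 CPM of Acta1 where replicates 2 and 3 had 62273 and 47605 CPM. The count was 4741 without that library, 1294 to 2518 without any 1 of the other 11, and 0 when each day 7 group was summed into 1 library (1756 at an unadjusted p below 0.05). Of the named genes, Saa3 had the largest difference below controls. In hydrogel wounds it averaged 44.2 CPM at day 7 and 1111 CPM at day 1, and in control wounds it was at 1006, 1004 and 1024 CPM at day 7 and 62.3, 13.1 and 24.6 CPM at day 1, a difference in log2 fold change of -9.58 ± 1.67 (adjusted p = 0.00349). The myeloid gene Slfn4 was at 23.4, 25.5 and 22.7 CPM in control wounds at day 7 and 8.29, 2.58 and 3.17 CPM at day 1, also opposite to the hydrogel wounds (-6.69 ± 0.92, adjusted p = 0.00104). Lcn2 was at 347, 357 and 351 CPM in control wounds at day 7 and 980.03, 1479 and 1143 CPM at day 1, lower at day 7 in both arms, with a further difference of -2.38 ± 0.45 (adjusted p = 0.00525). Among neutrophil genes, 9 of 20 had a change below that of controls and 1 above, and among acute-phase genes 9 of 13 and 0.

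Macrophage genes, which mostly did not pass within hydrogel wounds, differed between the arms in 10 of 19 cases, each with the hydrogel change below that of controls, with a median difference of -3.26. Adgre1 was at 49.2, 52.3 and 52.3 CPM in control wounds at day 7 and 17.2, 1.52 and 1.77 CPM at day 1, a difference of -4.41 ± 1.12 (adjusted p = 0.0197). Collagen chains differed likewise in 7 of 19 cases and collagen processing genes in 9 of 17. Col1a1 averaged 359 CPM at day 7 and 228 CPM at day 1 in hydrogel wounds, against 2369, 2297 and 2300.04 CPM at day 7 and 99.2, 43.9 and 57.3 CPM at day 1 in control wounds (-4.46 ± 0.55, adjusted p = 0.000645). Col3a1 differed by -4.90 ± 0.93 (adjusted p = 0.00528). In these genes the control wounds held the large change and the hydrogel wounds a small one.

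Epidermal genes differed in the other direction. In the basal keratinocyte list 10 of 16 genes had a hydrogel change above that of controls, in the differentiated list 12 of 23, in the wound-edge list 5 of 15 with 1 below, and in the sebaceous list 10 of 15. Krt14 averaged 3048 CPM at day 7 and 1173 CPM at day 1 in hydrogel wounds, against 119.9, 116 and 114 CPM at day 7 and 635, 961 and 1485 CPM at day 1 in control wounds, where day 7 was the lower (4.52 ± 0.86, adjusted p = 0.00511). Pmel stayed near 1 CPM in control wounds, at 0.818, 1.08 and 1.05 CPM at day 7 and 0.883, 1.44 and 1.77 CPM at day 1 (7.34 ± 1.34, adjusted p = 0.00436), and Dct at 1.26, 1.35 and 1.12 CPM at day 7 and 0, 0.227 and 6.21 CPM at day 1 (7.48 ± 1.99, adjusted p = 0.0238). Cholesterol synthesis genes had a hydrogel change above that of controls in 10 of 23 cases and below it in 1. For other changes no difference between the arms was shown. Mki67 was at 35.9, 35 and 35 CPM in control wounds at day 7 and 4.82, 4.47 and 3.99 CPM at day 1 (-0.72 ± 0.84, adjusted p = 0.613), and 1 of 24 mitosis genes differed. H2-Aa was at 245, 250.03 and 246 CPM in control wounds at day 7 and 39.3, 30.1 and 97.3 CPM at day 1 (0.09 ± 0.52, adjusted p = 0.928), and Mt2 differed by 0.77 ± 0.52 (adjusted p = 0.353). A p above the threshold does not show that the arms changed alike. Skeletal muscle and fat RNA differed between arms and libraries as well. Acta1 was at 9281 to 9395 CPM in control wounds at day 7. The adipocyte list summed to 56439 to 57351 CPM in those wounds, against 7380 to 8489 CPM in hydrogel wounds at day 7. The part of tissue composition in these differences was not tested.

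**Figure D4:**
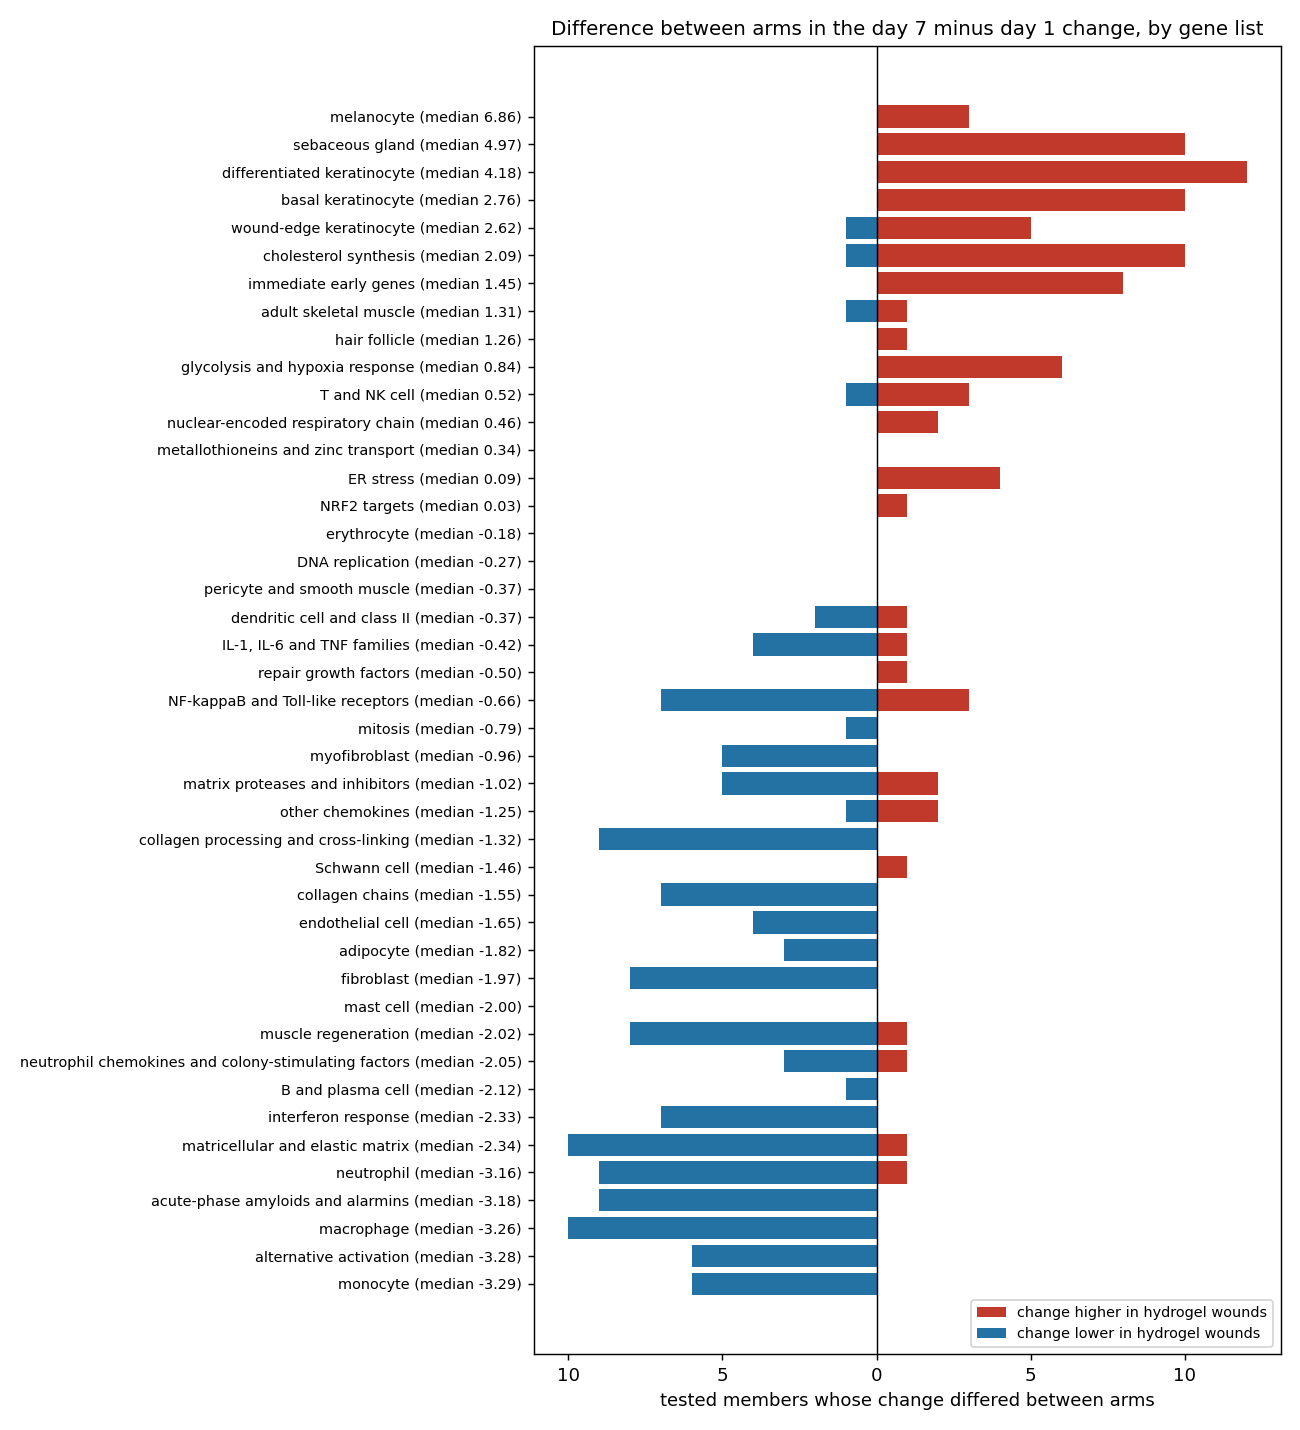
Number of tested members of each gene list whose day 7 minus day 1 change was above (red, right) or below (blue, left) that of diabetic control wounds at an adjusted p below 0.05, with lists ordered by the median difference on the log2 scale. Differentiated keratinocyte genes had 12 members above, and macrophage genes 10 below.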

How the data were processed

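RNA-seq read counts of wound libraries were analysed. Per the file headers, the authors' deposited counts are read pairs per gene symbol over exons of GENCODE M25 (GRCm38.p6), made with featureCounts and with no option for strand or for multiply aligned reads. The submitters' processing notes name Trim Galore 0.6.10, FastQC 0.11.9, HISAT2 2.2.1, SAMtools 1.9 and featureCounts 2.0.6. The files list 52976 symbols, and the 32 mitochondrial ones were at 0 in every library.

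Counts of the 18 wound libraries were fitted together in 6 groups with edgeR 4.0.16 (R 4.3.3, TMM, robust quasi-likelihood, 12 residual degrees of freedom), so that day 1 and day 7 of both arms and day 14 share 1 estimate of spread. Genes were kept by filterByExpr with a minimum count of 10 and a minimum total of 15, leaving 17592. A gene was called at an adjusted p below 0.05 (Benjamini-Hochberg over all genes). Fold bounds set a group at 0 to 3 counts in its libraries together, and log2 CPM a prior count of 2; intervals and floors cover counting error only. The 6 cell libraries were not used.

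Named genes are the 15 largest changes in each direction among called genes with a mean of at least 5 CPM and no overlap, up to 4 members by adjusted p of each list with at least 2 called, a panel of 20 genes, and 10 genes of the difference from controls. A further 49 genes were named after their values were seen, and a few genes that these rules name are not reported here. The members, the 43 lists (754 of 756 symbols found) and the panel were chosen with earlier results of these data known. Some genes, such as Chil3, Cd14, Mmp8, Egr2 and Postn, are shared between lists, so the lists are not independent. Promoters and motifs come from RefSeq tables. The edgeR tests were also run on simulated counts. Alternatives were other size factors, filters, tools (DESeq2 1.42.0, limma 3.58.1), samples and a replicate block. Equal replicate numbers did not pair the libraries.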

Additional observations from a re-analysis of the deposited data

Results flagged for a closer look

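The genes below were marked because their day 7 minus day 1 change differed between hydrogel wounds and diabetic control wounds by the test of the difference itself (edgeR, adjusted p below 0.05 over all genes). Of 58 genes considered, 33 differed, 15 with the hydrogel change above and 18 with it below that of controls. Of these, 10 had been chosen by this difference and had to pass. Of the other 48, chosen with hydrogel values known, 23 differed (47.9%), against 12.9% of all genes. The same libraries entered their choice and this test. No explanation was weighed. Groups held 3 libraries, too few to test single libraries as outliers. Values are differences in log2 fold change, hydrogel minus control.

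Above controls, pigment genes differed by 7.34 for Pmel, 7.48 for Dct and 6.86 for Tyrp1. Epidermal genes differed by 8.29 for Serpina3b, 7.46 for Alox12e, 6.28 for Gsdma3 and 4.52 for Krt14. The protease genes Mmp12 and Gzmc differed by 5.81 and 6.11, and the cytochrome P450 gene Cyp3a57 by 9.23. Sphk1, a sphingosine kinase, differed by 5.08, with 32.5, 34.7 and 34.3 CPM in hydrogel wounds at day 7 and 21, 25.5 and 12.8 CPM at day 1, against 7.29, 6.98 and 6.56 CPM in control wounds at day 7 and 209, 100.2 and 104 CPM at day 1. Sdc4, the heparan sulphate carrier syndecan-4, differed by 3.11, Cish, a cytokine signalling inhibitor, by 4.96, Gadd45g by 2.99 and the nuclear receptor Nr4a3 by 5.96.

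Below controls, acute-phase and neutrophil genes differed by -9.58 for Saa3, -8.22 for Saa1, -2.38 for Lcn2, -5.88 for Wfdc21, -3.30 for Cxcr2 and -3.02 for Mmp9. Myeloid genes differed by -6.69 for Slfn4, -4.66 for Chil3, -4.86 for Ccl4, -4.41 for Adgre1 and -3.95 for Fgd2. Matrix genes differed by -4.46 for Col1a1, -4.90 for Col3a1, -4.84 for Col8a1 and -3.51 for Loxl3. Angptl8 differed by -7.97, Oas2 by -4.65 and the death ligand gene Tnfsf10 by -3.94. Muscle and fat content differed between control day 1 libraries, and their part in these differences was not tested.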

How the results depend on the processing

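Calls depended on the model and on single libraries far more than directions did. Against 3221 genes called (1366 higher and 1855 lower at day 7), 2039 (1096 and 943) were called with no filter on low counts, 212 (150 and 62) when the change was tested against 2-fold, 4340 (2072 and 2268) with DESeq2, 9229 (3723 and 5506) with limma-voom and quality weights, 2676 (1583 and 1093) with only the 6 libraries, 4903 (2539 and 2364) with 9 hydrogel libraries and 2279 (1717 and 562) with library totals. Summing each day 7 group into 1 library left 1 higher (Lrrc15) and 0 lower with edgeR (2035 at an unadjusted p below 0.05). These last 2 alternatives were chosen after seeing the data. Leaving out 1 library gave 999 to 5169 genes, 443 to 1935 higher and 478 to 3234 lower; the lowest total came without day 1 replicate 2 and the highest without day 1 replicate 1. For the difference from controls, 2275 genes (1030 above and 1245 below) became 1525 (752 and 773) with no filter, 783 (393 and 390) against 2-fold, 3334 (1652 and 1682) with DESeq2, 7649 (3296 and 4353) with limma-voom and 0 (0 and 0) with day 7 groups summed (1756 unadjusted); leaving out 1 library gave 1294 to 4741, 559 to 1927 above and 693 to 2814 below. A replicate block gave 3099 genes, and 2530 for the difference; correlations of libraries with equal numbers were 0.011, 0.019 and 0.019, so the numbers gave no pairing. RLE size factors and a minimum count of 50 kept both totals within 1.5 times.

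Reversed signs were found for Arg1 (0.58), which had passed, and for Acta2 (0.16), Krt6a (0.27) and Krt10 (0.41), which had not, with limma-voom, and for Acta2 (0.13) and Mitf (0.10) with library totals. With 1 library left out, log2 fold changes spanned -0.51 to 0.51 for Acta2, -0.73 to 0.033 for Krt6a, -1.25 to 1.30 for Krt10, -3.19 to 0.73 for Lor and -0.40 to 0.0032 for Mitf. The cause was not tested. Genes near the floor, such as Tyr and Oca2 at day 1, are limited by depth.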

Other observations

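Several genes outside the lists changed as much as those within them, and were chosen after their values had been seen. Elovl4, which makes the very long acyl chains of skin ceramides and of sebum, was at 2462, 2608 and 2405 CPM in day 7 wounds, against 13.8, 48.2 and 191 CPM in day 1 wounds (4.88 ± 1.42, adjusted p = 0.0283); it no longer passed without any 1 library except day 1 replicate 3. Cyp17a1, a steroid hydroxylase, was at 16.9, 14.7 and 17.5 CPM in day 7 wounds, against 0.172, 0.473 and 1.09 CPM in day 1 wounds (4.74 ± 0.91, adjusted p = 0.00495), and passed without each single library. The selectin gene Selp of platelets and activated vessels was at 3.66, 2.86 and 4.68 CPM in day 7 wounds, against 73.2, 19.9 and 28.9 CPM in day 1 wounds (-3.44 ± 0.61, adjusted p = 0.00351). Ptx3, a pentraxin of innate immunity, was at 6.82, 5.21 and 8.08 CPM in day 7 wounds, against 33.3, 54.7 and 42.3 CPM in day 1 wounds (-2.70 ± 0.49, adjusted p = 0.00392). Both fell without overlap and passed without each single library.

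Further genes chosen in this way fell. Rrad, a small GTPase of injured muscle, was at 58.4, 10.6 and 105 CPM in day 7 wounds, against 626, 1288 and 928 CPM in day 1 wounds (-4.03 ± 0.91, adjusted p = 0.00987). Ankrd1, a stretch-responsive ankyrin repeat gene, was at 97.6, 69.3 and 128 CPM in day 7 wounds, against 603, 1858 and 772 CPM in day 1 wounds (-3.45 ± 0.95, adjusted p = 0.0232). Pdk4, the pyruvate dehydrogenase kinase of fasting, was at 327, 384 and 299.5 CPM in day 7 wounds, against 501, 6737 and 2606 CPM in day 1 wounds (-3.28 ± 0.86, adjusted p = 0.0187). Ankrd1 and Pdk4 no longer passed without day 1 replicate 2 or any 1 day 7 library. Nr1d1, the clock repressor REV-ERB alpha, was at 12.8, 11.7 and 12.9 CPM in day 7 wounds, against 16.7, 143 and 57.2 CPM in day 1 wounds (-2.54 ± 0.50, adjusted p = 0.00595), and its spread at day 1 was wide; the hour of sampling is not given in the sources used here.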
